A study of Mus musculus with 18 samples.

Results

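The genes described here encode the receptors for the cytokines BAFF and APRIL and the adaptors that bind those receptors. They were chosen by gene name: Tnfrsf13b (the receptor TACI), Tnfrsf13c (the BAFF receptor), Tnfrsf17 (the receptor BCMA), Traf2 and Traf3. They are 5 of the 28374 genes that could be matched by name and chromosome between the 129 and Cast count tables, and all 5 were matched. Their level and their change after stimulation were measured separately on each parental allele.

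BAFF and APRIL are cytokines of the TNF family that keep B cells alive and support antibody production. The BAFF receptor binds BAFF alone and supplies the survival signal of mature B cells, TACI binds BAFF and APRIL and limits or steers B cell responses, and BCMA serves mainly plasma cells. In unstimulated B cells TRAF3 and TRAF2, together with the ubiquitin ligases encoded by Birc2 and Birc3, keep the kinase NIK (Map3k14) degraded, and engagement of the BAFF receptor removes TRAF3 and lets NIK start the non-canonical NF-kB pathway.

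The samples were splenic CD23+ B cells of female F1 mice from a cross of 129S1 and Cast, a line carrying many sequence differences from laboratory strains. CD23 is a surface receptor of mature, mainly follicular B cells. Both groups carried the genotype Xist+/-, so that the Cast X chromosome was the inactive one in every cell, per the labels. The naive group (3 samples) had no treatment, and the CpG group (3 samples) was kept in vitro with 1 µM CpG for 24 h. CpG oligonucleotides mimic microbial DNA and stimulate B cells by way of TLR9. Stimulation and 24 h of culture therefore came together, and no unstimulated culture was analysed here, so their effects cannot be told apart. The other 12 of the 18 samples of the series belong to another cross and are not analysed here. Ages are not given in the sources used here. The labels do not say that the samples came from separate mice, so p-values measure the spread between these samples, which may be technical.

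The 5 genes lie on autosomes. In the GRCm38 annotation of GENCODE, Tnfrsf13b spans chr11:61126755-61149372 on the plus strand, Tnfrsf13c chr15:82221743-82224369 on the minus strand and Tnfrsf17 chr16:11313812-11320074 on the plus strand. Traf2 spans chr2:25517982-25546940 on the minus strand and Traf3 chr12:111166370-111267153 on the plus strand. The authors' tables used strain-specific annotations, in which Tnfrsf13b is MGP_129S1SvImJ_G0018432 and MGP_CASTEiJ_G0017742 and Tnfrsf13c is MGP_129S1SvImJ_G0022137 and MGP_CASTEiJ_G0021394. Opposite-strand genes overlap Tnfrsf13b (the pseudogene Gm12269), Traf2 (the pseudogene Gm13433) and Traf3 (the coding gene 4930595D18Rik). The library kit keeps strand, but the strand setting of the counting is not given in the sources used here, so reads of these partners could be mixed with those of the 3 genes.

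The 250 bases before the annotated start of Tnfrsf13b, which rose over the summed alleles, and of Tnfrsf13c and Traf3, which both fell, are shown. Their upstream sequences differ in composition, and a link with the direction of change was not tested. The window of Traf2, which fell as well, is not printed. They are RefSeq sequences of the GRCm38.p6 reference (strain C57BL/6J, neither parent of these mice), 5′ to 3′ on the gene's strand, with capitals marking an NF-kB site or a GC box (GGGCGG), each searched on both strands.
Tnfrsf13b, chr11:61126505-61126754, plus strand: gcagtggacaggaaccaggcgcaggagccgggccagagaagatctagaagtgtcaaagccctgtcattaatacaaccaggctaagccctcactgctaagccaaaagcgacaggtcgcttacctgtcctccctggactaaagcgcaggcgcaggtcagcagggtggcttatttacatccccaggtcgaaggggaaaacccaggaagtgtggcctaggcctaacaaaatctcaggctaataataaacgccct
Tnfrsf13c, chr15:82224381-82224630, minus strand: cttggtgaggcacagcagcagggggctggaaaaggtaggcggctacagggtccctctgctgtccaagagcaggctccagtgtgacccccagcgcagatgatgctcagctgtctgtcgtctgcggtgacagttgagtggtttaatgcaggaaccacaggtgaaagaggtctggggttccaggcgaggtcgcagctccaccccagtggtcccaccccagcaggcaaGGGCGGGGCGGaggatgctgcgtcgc
Traf3, chr12:111166120-111166369, plus strand: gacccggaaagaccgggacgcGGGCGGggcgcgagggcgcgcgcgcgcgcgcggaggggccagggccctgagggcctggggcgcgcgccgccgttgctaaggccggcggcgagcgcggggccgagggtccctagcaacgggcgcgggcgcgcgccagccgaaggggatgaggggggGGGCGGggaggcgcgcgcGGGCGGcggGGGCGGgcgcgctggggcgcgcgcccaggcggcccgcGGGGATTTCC
The window of Tnfrsf13b held neither motif, with 54% G and C and 8 CG dinucleotides. The window of Tnfrsf13c held 2 GC boxes that share 1 base, beginning 26 and 21 bases before the start, with 63.2% G and C and 10 CG dinucleotides. The window of Traf3 held 4 GC boxes and 1 NF-kB site, which ends next to the start, with 85.2% G and C and 49 CG dinucleotides. An NF-kB site was found in 7.25% of all 32851 mouse promoter windows of this length and a GC box in 32.7%. The Tnfrsf17 window held 1 GC box and the Traf2 window neither motif. A match describes the letters of the window and no more.

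Reads in genes ranged from 1987266 to 2928236 per sample in the 129 tables and from 2465073 to 3321753 in the Cast tables. Levels are given as CPM (reads of a gene per 1000000 reads in genes), scaled between samples by TMM factors. The 7 mature B cell markers matched on both alleles summed to between 8080 and 9971 CPM in the naive and between 2830 and 3528 CPM in the CpG samples, and all 7 fell (median log2 fold change -1.74 on summed alleles, edgeR's quasi-likelihood test with Benjamini-Hochberg adjustment). The 8 macrophage markers summed to between 1531 and 3911 CPM in the naive and between 5.08 and 5.58 CPM in the CpG samples. The 6 plasma cell markers summed to between 594 and 838 CPM and between 1040 and 1097 CPM, but did not move together. Over the summed alleles 3 of 5 tested rose and 1 fell. Mzb1 had the largest rise in CPM, from a mean of 124 to 503 CPM, whereas Jchain fell from 191 to 54.6 CPM. Irf4 fell on the 129 allele and did not pass over the summed alleles. T cell markers (6 of 6 matched) went from between 46.8 and 62.5 CPM to between 5.78 and 6.64 CPM, with Cd3g at 0. Most of the naive sum was Cd4 (mean 37.1 CPM) and Lck (10.3 CPM). Cd3d, Cd3e, Cd3g and Cd8a had naive means of only 3.65, 1.68, 0.882 and 1.14 CPM. With CpG nearly all of the sum was Lck (5.86 CPM). Monocyte and neutrophil (3 of 5) markers went from between 31.8 and 41.4 CPM to between 1.80 and 3.32 CPM. Erythroid markers (2 of 4) went from between 32.0 and 72.1 CPM to between 0.598 and 0.821 CPM. Dendritic cell markers (5 of 5) went from between 13.8 and 23.6 CPM to between 5.86 and 12.4 CPM, with Clec9a at 0. They did not move together. Over the summed alleles Flt3 stayed level (means 7.83 and 7.69 CPM), and Xcr1, with few reads, was at 0.0768 and 0.463 CPM. Siglech fell from 5.54 to 0.0684 CPM, and Zbtb46 was at 2.09 and 0.931 CPM. NK cell markers (3 of 4) went from between 4.30 and 9.87 CPM to between 0 and 0.205 CPM, with Ncr1 and Nkg7 at 0. These shifts stand beside every change reported below, and their part in it was not tested. In bulk RNA, fewer cells of a type and less RNA per cell cannot be told apart.

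Of the 3 receptors, TACI had by far the most counted reads per kilobase of exon. On the Cast allele and over the summed alleles TACI rose with CpG while the BAFF receptor fell. Over both alleles and per kilobase of exon, Tnfrsf13b stood at 405 ± 72.9 in the naive and 514 ± 5.94 CPM per kilobase in the CpG samples (SD, n = 3 each). Tnfrsf13c followed with 69.6 ± 8.47 and 46.9 ± 0.881, Traf3 with 23.8 ± 3.49 and 18.9 ± 1.52, and Traf2 with 8.77 ± 0.0672 and 5.09 ± 0.437. Tnfrsf17 was the lowest, at 1.27 ± 0.659 and 0.245 ± 0.424. The order of the 5 levels was the same in both groups, and neighbours in this order did not overlap between their samples in either group. These are reads that were given to a strain. The share of a gene's reads that could be so given may differ between genes, and its part in the order was not tested.

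**Figure D1:**
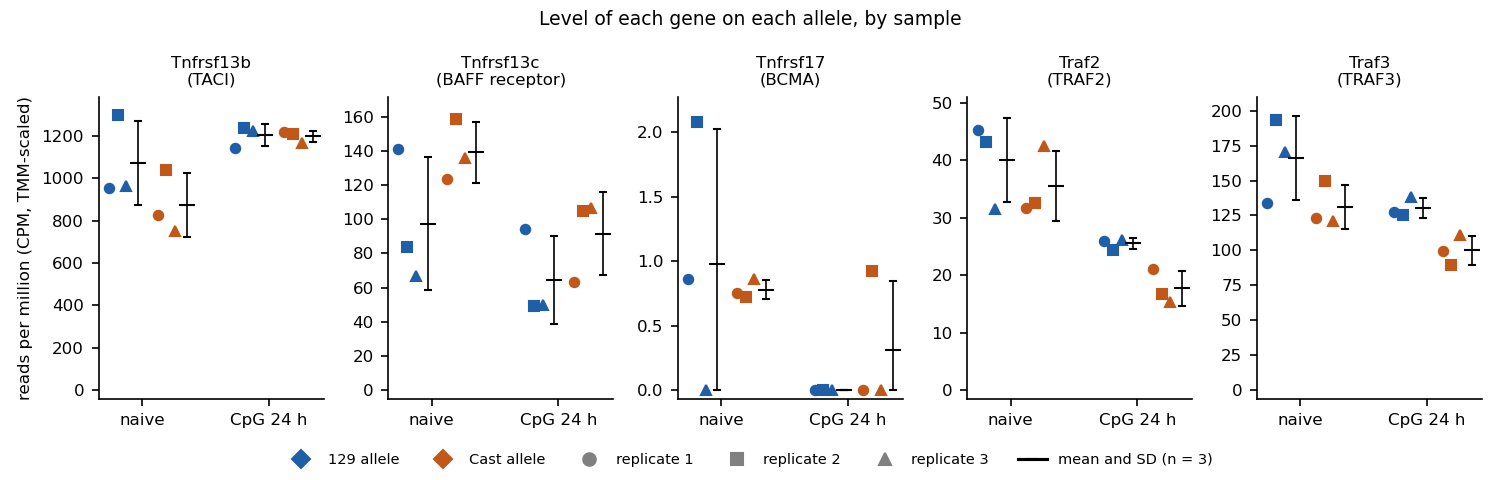
Level of each gene in TMM-scaled CPM (vertical axes differ and start just below 0), in the 3 naive and 3 CpG samples, with 1 point per sample and allele and a bar for mean and SD (cut at 0). Traf2 sits lower in every CpG sample than in any naive sample on both alleles, Tnfrsf13b is higher in every CpG sample on the Cast allele, and Tnfrsf17 stays at or below 5 reads per sample and allele.

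Of the 5 genes, 4 had enough reads to be tested on each allele. On the 129 allele 1 of them passed (edgeR's quasi-likelihood test, Benjamini-Hochberg adjusted p under 0.05), where 55.2% of all 10581 tested genes did so, and on the Cast allele 4 passed, where 62.2% of 10365 did. Over the summed alleles 4 passed, beside 68.7% of 10343 genes. Over all tested genes, 28.2% of genes rose and 27% fell on the 129, 30.7% and 31.5% on the Cast, and 34.2% and 34.4% over the summed alleles. Of the 4 genes, Tnfrsf13b rose and Tnfrsf13c, Traf2 and Traf3 fell on the Cast allele and over the summed alleles. With shares this high, a count of 4 of 4 lies near what the whole table gives. With the replicate number as a block, the count on the 129 allele was 3 of 4, where 65.1% of all tested genes passed. Leaving out replicate 1 of both groups gave 0 of 4 on the 129 allele, 1 on the Cast allele and 2 over the summed alleles, and the shares of all tested genes fell to 42.4%, 50.2% and 56.7%.

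Tnfrsf13b, which encodes TACI, had 2220, 3126 and 1917 naive reads from the 129 allele and 3176, 3494 and 3508 reads with CpG. Scaled to depth these were 955, 1299 and 961 CPM and 1142, 1238 and 1224 CPM, so naive replicate 2 was above all 3 CpG samples and the groups overlapped. The means were 1072 ± 197 and 1202 ± 52.0 CPM (SD, n = 3), and the log2 change of 0.16 (SE 0.15) did not pass (edgeR adjusted p = 0.371). Without naive replicate 2 it was 0.33 and passed (edgeR adjusted p = 0.0380), whereas without naive replicate 1 it was 0.091 and without naive replicate 3 it was 0.096.

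On the Cast allele Tnfrsf13b had 2194, 2882 and 1742 reads in the naive and 3866, 3914 and 3941 in the CpG samples. The levels were 827, 1040 and 748 CPM against 1218, 1207 and 1166 CPM, with every CpG sample above every naive one. The Cast copy rose from 871 ± 151 to 1197 ± 27.4 CPM (SD, n = 3), a difference of 0.46 in log2 (SE 0.15, adjusted p from edgeR = 0.0221). This call was lost without naive replicate 1 (edgeR adjusted p = 0.0623), naive replicate 3 (0.0681) or CpG replicate 1 (0.0552), and without replicate 1 of both groups (0.161).

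Over both alleles Tnfrsf13b was at 1054, 1384 and 1004 CPM in the naive and 1445, 1478 and 1454 CPM in the CpG samples, which did not overlap. The log2 change was 0.35 (SE 0.14, adjusted p from edgeR = 0.0453). The summed change passed only narrowly: 10 of 14 other settings ended the call, among them RLE scaling (edgeR adjusted p = 0.0625) and the omission of any single sample other than naive replicate 2. The CpG samples lay close together and the naive samples far apart, with replicate 2 the highest of the naive samples on both alleles.

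Tnfrsf13c, which encodes the BAFF receptor, had 328, 202 and 133 reads from the 129 allele in the naive and 262, 138 and 143 in the CpG samples. Replicate 1 was the highest of its group in both conditions, at 141 CPM against 83.9 and 66.7 CPM in naive cells and at 94.2 CPM against 48.9 and 49.9 CPM with CpG. The groups therefore overlapped, with means of 97.2 ± 39.0 and 64.3 ± 25.9 CPM (SD, n = 3), and the log2 change of -0.60 (SE 0.37) did not pass (edgeR adjusted p = 0.216). Without naive replicate 1 it was -0.23, and without CpG replicate 1 it was -0.97 (edgeR adjusted p = 0.0537). With the replicate number as a block the same log2 fold change had an SE of 0.14 and passed (edgeR adjusted p = 0.00194).

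On the Cast allele Tnfrsf13c had 328, 440 and 316 reads in the naive and 201, 339 and 360 in the CpG samples. Here replicate 1 was the lowest of its group in both conditions, at 124 CPM beside 159 and 136 CPM and at 63.3 CPM beside 105 and 107 CPM. The Cast copy fell from 139 ± 17.9 to 91.5 ± 24.4 CPM (SD, n = 3) without overlap, a difference of -0.61 in log2 (SE 0.20, adjusted p from edgeR = 0.0270). The call was lost without naive replicate 2 (edgeR adjusted p = 0.0962), naive replicate 3 (0.0553), CpG replicate 1 (0.0766) or replicate 1 of both groups (0.0578), and the value without CpG replicate 1 was -0.37.

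The opposite offsets of replicate 1 on the 2 alleles cancelled in the sum. Over both alleles Tnfrsf13c was at 157, 148 and 123 CPM in the naive and 95, 95.1 and 98.2 CPM in the CpG samples. It fell from 143 ± 17.3 to 96.1 ± 1.81 CPM (SD, n = 3), a difference of -0.57 in log2 (SE 0.11, adjusted p from edgeR = 0.00148). This call held without any single sample and without replicate 1 of both groups, and was lost only where a log2 fold change of at least 1 was required.

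Tnfrsf17, which encodes BCMA, was close to the limit of detection. The 129 allele gave 2, 5 and 0 reads in the naive and 0, 0 and 0 in the CpG samples, and the Cast allele 2, 2 and 2 and then 0, 3 and 0. Summed over samples and alleles, 13 naive reads stood against 3 reads with CpG, a ratio of 5.34 by depth with an exact 95% counting interval from 1.47 to 29.2. That interval covers counting error only, and the gene did not pass the filter on low counts on either allele or in their sum. With no such filter it did not pass an adjusted p of 0.05 on the 129 allele (edgeR adjusted p = 0.0895, unadjusted p = 0.0340), on the Cast allele (0.506) or over the summed alleles (0.120). The limit that a count of 0 allows, 3 reads over a group, was 0.246 CPM in the naive and 0.200 CPM in the CpG samples.

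The ligands were near 0 in the same libraries. Tnfsf13, the gene of APRIL, had 6, 4 and 3 reads over both alleles in the naive and 0 in each CpG sample, at least 5.34-fold lower against a floor of 3 reads over the group. Tnfsf13b, the gene of BAFF, had 5 reads in the naive and 5 in the CpG group in all, which gave no difference beyond counting error (ratio 1.23, exact 95% counting interval 0.284 to 5.36). Neither ligand had enough reads to be tested.

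Both adaptors fell with CpG on the Cast allele and over the summed alleles, and Traf2 also on the 129 allele. Traf2, which encodes the TRAF adaptor that brings the Birc2 and Birc3 ligases to the complex, had 105, 104 and 63 reads from the 129 allele in the naive and 72, 69 and 75 in the CpG samples. The levels were 45.2, 43.2 and 31.6 CPM against 25.9, 24.5 and 26.2 CPM, with no overlap. The 129 copy fell from 40.0 ± 7.34 to 25.5 ± 0.922 CPM (SD, n = 3), a difference of -0.65 in log2 (SE 0.20, adjusted p from edgeR = 0.0252). It was the only one of the 5 genes that passed on the 129 allele, and the call was lost without any single sample except naive replicate 3, with adjusted p from edgeR between 0.0595 and 0.0886, and without replicate 1 of both groups (0.1496).

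On the Cast allele Traf2 had 84, 90 and 99 reads in the naive and 67, 54 and 52 in the CpG samples. The levels of 31.6, 32.5 and 42.5 CPM lay above the 21.1, 16.7 and 15.4 CPM of the CpG samples. The Cast copy fell from 35.5 ± 6.06 to 17.7 ± 3.01 CPM (SD, n = 3), a difference of -1.001 in log2 (SE 0.21, adjusted p from edgeR = 0.00275), and this call held without any single sample.

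Over both alleles Traf2 stood at 45.1, 44.7 and 44.4 CPM in the naive samples, and at 28.5, 24.5 and 24.8 CPM with CpG. The log2 change was -0.79 (SE 0.13, adjusted p from edgeR = 5.77e-04), in magnitude the largest of the 4 tested genes over the summed alleles. The naive samples differed by less than the CpG samples did.

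Traf3, which encodes the adaptor that binds NIK and whose removal starts the non-canonical pathway, had 311, 466 and 340 reads from the 129 allele in the naive and 355, 353 and 397 in the CpG samples. The levels were 134, 194 and 170 CPM and then 128, 125 and 139 CPM, where naive replicate 1 lay among the CpG samples. The 129 log2 change of -0.35 (SE 0.15) did not pass (edgeR adjusted p = 0.0908). With the replicate block it was -0.33 and passed (edgeR adjusted p = 0.0369), and it also passed without naive replicate 1 (-0.48, edgeR adjusted p = 0.0263), whereas without naive replicate 2 it was -0.22 (edgeR adjusted p = 0.264).

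On the Cast allele Traf3 had 326, 414 and 282 reads in the naive and 315, 291 and 375 in the CpG samples. The levels of 123, 149 and 121 CPM lay above 99.3, 89.7 and 111 CPM, and the log2 fold change was -0.39 (SE 0.14, edgeR adjusted p = 0.0349). The call was lost in 9 of 15 other settings, among them library totals in place of TMM (edgeR adjusted p = 0.0669), DESeq2 (DESeq2 adjusted p = 0.0907), the omission of naive replicate 1, CpG replicate 1 or CpG replicate 2 (edgeR adjusted p from 0.0707 to 0.117), and that of naive replicate 2, which moved the value to -0.26 (edgeR adjusted p = 0.158). Over both alleles Traf3 went from 152, 203 and 171 CPM to 137, 128 and 151 CPM, without overlap, a difference of -0.33 in log2 (SE 0.13, adjusted p from edgeR = 0.0373) that was lost in 8 of 14 other settings, among them the omission of naive replicate 2, naive replicate 3, CpG replicate 1 or CpG replicate 2. Without naive replicate 2 it was -0.21.

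Non-overlap of the groups, as seen for all 4 tested genes over the summed alleles, was found for 73.8% of all tested genes. On the Cast allele it was also found for 4 of 4, beside 68.5% of genes, and on the 129 allele for Traf2 alone, beside 64.8%.

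Ratios of 2 genes within a sample need no scaling between samples, and show how the balance of the receptors and of the adaptors moved. Reads of Tnfrsf13b over reads of Tnfrsf13c, summed over alleles, were 6.73, 9.36 and 8.15 in the naive and 15.2, 15.5 and 14.8 in the CpG samples. The ratio was 1.88 times higher with CpG, 8.08 ± 1.32 against 15.2 ± 0.361 (SD, n = 3), and the groups stood apart (two-sided exact permutation p = 0.1, and 3 against 3 samples allow none smaller). On the Cast allele alone the groups did not overlap either (6.25 ± 0.643 against 13.9 ± 4.62, exact p = 0.1), whereas on the 129 allele they did (12.2 ± 4.75 against 20.7 ± 7.40, exact p = 0.3). The 129 ratio was nevertheless higher with CpG at each replicate number. It went from 6.77 to 12.1, from 15.5 to 25.3 and from 14.4 to 24.5 in replicates 1, 2 and 3.

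Reads of Traf3 over reads of Traf2 were 3.37, 4.54 and 3.84 in the naive and 4.82, 5.24 and 6.08 in the CpG samples. The ratio was 1.37 times higher with CpG, 3.92 ± 0.587 against 5.38 ± 0.641 (SD, n = 3), and the groups did not overlap (two-sided exact permutation p = 0.1). On the 129 allele alone they overlapped (exact p = 0.4) and on the Cast allele they did not (exact p = 0.1). Both ratios were computed after the levels above had been seen, and the 4 genes behind them are those of the fits.

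**Figure D2:**
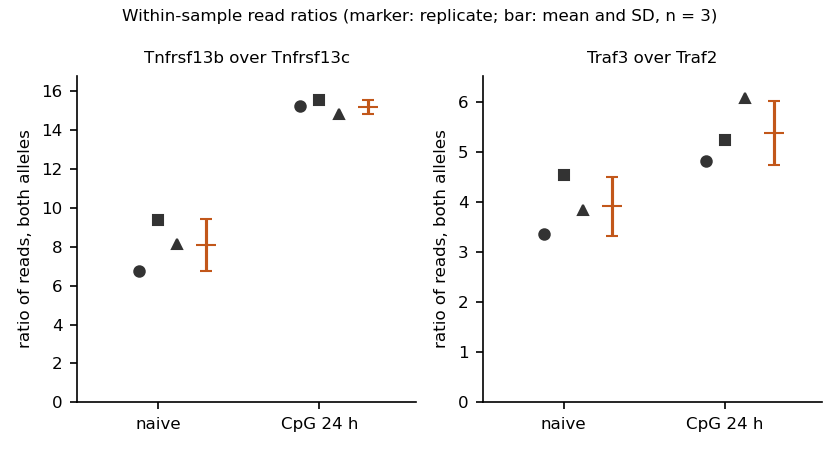
Ratio of reads of Tnfrsf13b to Tnfrsf13c and of Traf3 to Traf2 within each sample, both alleles summed (vertical axes start at 0; circle, square and triangle are replicates 1, 2 and 3; the bar is mean and SD). For Tnfrsf13b over Tnfrsf13c the CpG samples lie between 14.8 and 15.5, all above the naive maximum of 9.36, and for Traf3 over Traf2 the lowest CpG sample, 4.82, is above the highest naive one, 4.54.

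The share of reads that came from the Cast allele was near 50% for most of these genes, and for Tnfrsf13b it was higher in every CpG sample. Over all matched autosomal genes the Cast share was 52.7% ± 0.793 in the naive and 52.9% ± 0.812 in the CpG samples (SD, n = 3). In the naive samples Tnfrsf13b had Cast shares of 49.7%, 48.0% and 47.6% (95% Wilson intervals 48.2 to 51.2, 46.7 to 49.2 and 46.0 to 49.2). The CpG samples had 54.9% (53.7 to 56.1), 52.8% (51.7 to 54.0) and 52.9% (51.8 to 54.0), so that no interval of 1 group reached into the other group. The intervals take in counting error alone, because PCR copies of a molecule were not told apart.

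The mean Cast share of Tnfrsf13b was 48.4% ± 1.12 against 53.5% ± 1.17 (SD, n = 3), a difference of 5.12 percentage points (two-sided exact permutation p = 0.1, the smallest possible). Same-numbered samples differed by 5.19, 4.87 and 5.30 points (exact sign-flip p = 0.25, the smallest that 3 pairs allow). Tested as a shift in the ratio of Cast to 129 reads over all 10364 genes with enough reads, it was a log2 change of 0.30 (SE 0.07) that did not pass (edgeR adjusted p = 0.129, unadjusted p = 0.00375). None of the 4 tested genes passed in this fit, where 0.917% of all genes did, 0.482% toward Cast and 0.434% toward 129. At an unadjusted p under 0.05, 1179 genes and of the 4 only Tnfrsf13b passed. With a term for the allele ratio of each replicate number, the log2 change of Tnfrsf13b was again 0.30 (SE 0.08) and passed (edgeR adjusted p = 0.00678), as 7.52% of all genes did.

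**Figure D3:**
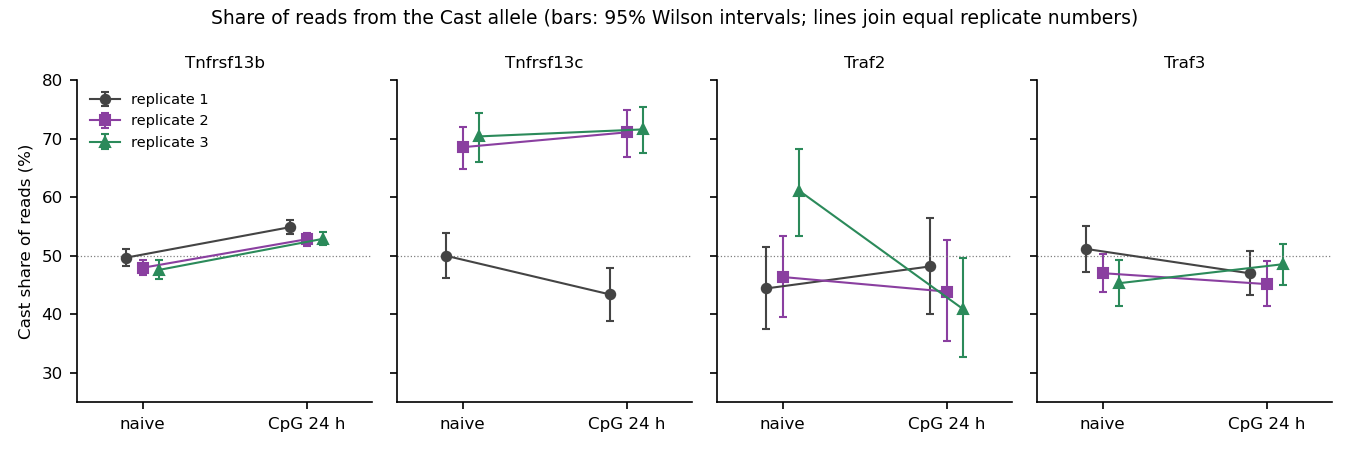
Share of reads from the Cast allele (vertical axis, %, from 25 to 80) in the naive and CpG samples for the 4 genes with enough reads; lines join samples with the same replicate number and bars are 95% Wilson intervals. All 3 lines of Tnfrsf13b rise by about the same amount (4.87 to 5.30 points), whereas replicate 1 of Tnfrsf13c lies below replicates 2 and 3 in both groups.

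For Tnfrsf13c the Cast share differed between replicates more than between conditions. It was 50% (95% Wilson interval 46.2 to 53.8), 68.5% and 70.4% in the naive and 43.4% (39.0 to 48.0), 71.1% and 71.6% in the CpG samples. Replicate 1 was thus the lowest in both groups, with an interval below the values of the other 2. The group means were 63.0% ± 11.3 and 62.0% ± 16.1 (SD, n = 3; two-sided exact permutation p = 1), and the log2 change of the ratio was -0.03 with an SE of 0.62 (edgeR adjusted p = 1). A change of the allelic balance of this gene with CpG was not detectable against that spread, and with the replicate block the value was -0.05 with an SE of 0.16 (edgeR adjusted p = 0.937).

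For Traf2 the Cast share was 44.4%, 46.4% and 61.1% in the naive and 48.2%, 43.9% and 40.9% in the CpG samples, with naive replicate 3 above all others. The means of 50.6% ± 9.11 and 44.3% ± 3.65 (SD, n = 3) did not differ beyond this spread (two-sided exact permutation p = 0.4), nor did the Cast-to-129 ratio (log2 change -0.36, SE 0.32, edgeR adjusted p = 0.807). Without naive replicate 3 the share of Traf2 differed by -1.07 in place of -6.30 points, and the log2 change of its ratio was -0.061. For Traf3 it was 51.2%, 47.0% and 45.3% in the naive and 47.0%, 45.2% and 48.6% in the CpG samples. Those means, 47.9% ± 3.00 and 46.9% ± 1.70, overlapped as well (two-sided exact permutation p = 0.6), and the log2 change of the ratio was -0.05 (SE 0.13, edgeR adjusted p = 0.998). These 4 comparisons of shares make up the family, and none can fall below 0.1 before adjustment.

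The offset of Tnfrsf13c was shared by some but not all genes around it. Among the 24 nearest genes that had 30 or more reads in each of the samples, 12 on each side, the mean Cast share of replicates 2 and 3 exceeded that of replicate 1 by over 15 points in 4, and in none was it lower by as much. Over all 7264 autosomal genes with such depth, 412 (5.67%) exceeded that limit and 233 lay as far below. The 4 genes were Rrp7a, Poldip3, Cyb5r3 and Mcat, all on the side toward higher coordinates. Rrp7a, 892 kb away, had Cast shares of 96.0% and 95.2% in naive replicates 2 and 3 and 39.4% in replicate 1, and 94.6%, 90.4% and 37.1% in the same order with CpG. Cyb5r3, 932 kb away, went the same way, from 63.2% in naive replicate 1 to 98.1% and 99.4% in the others. The genes next to Tnfrsf13c did not share the offset: Srebf2 lay between 48.1% and 52.2% in all 6 samples and Ndufa6 between 48.1% and 54.7%.

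**Figure D4:**
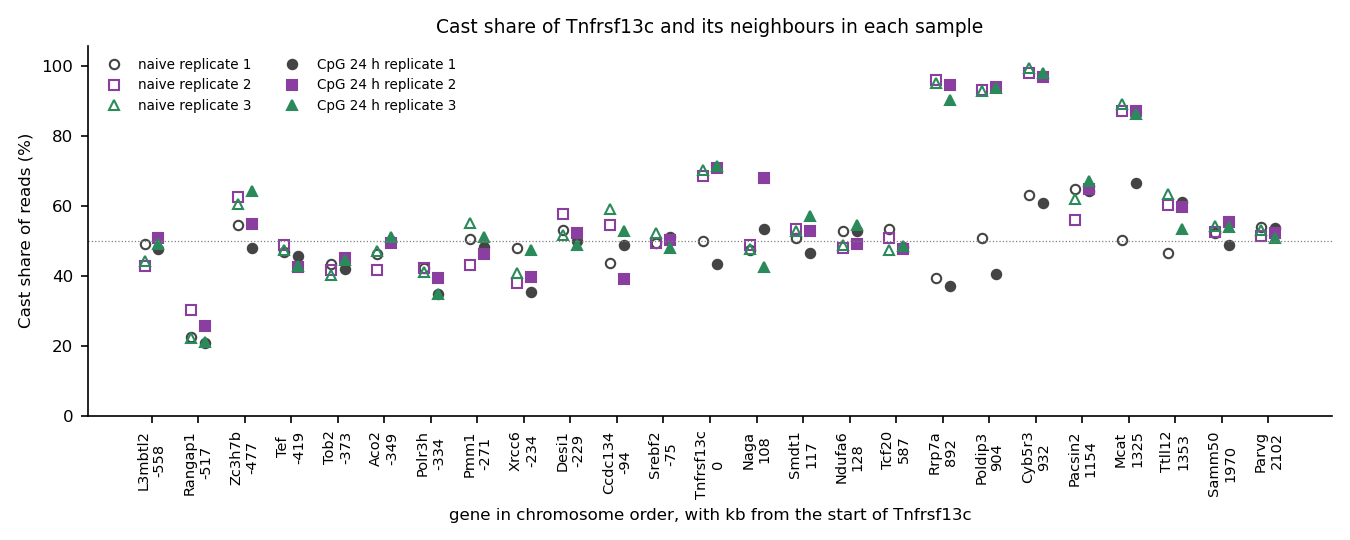
Share of reads from the Cast allele (vertical axis, %) for Tnfrsf13c and its 24 nearest measured genes in chromosome order, with the distance from the start of Tnfrsf13c in kb under each name; open marks are naive and filled marks CpG samples. Tnfrsf13c, Rrp7a, Poldip3, Cyb5r3 and Mcat show replicates 2 and 3 (squares and triangles) above replicate 1 (circles) in both groups, whereas Smdt1, Ndufa6 and Tcf20, which lie between Tnfrsf13c and Rrp7a, stay between 46.6% and 57.1%.

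Around the other tested genes fewer passed this limit, with 1 such gene of 24 near Tnfrsf13b, 0 of 24 near Traf2 and 0 of 24 near Traf3. The limit follows the pattern of Tnfrsf13c, with replicates 2 and 3 together against replicate 1. An offset of replicate 3 alone counts only in part, so these counts do not show how common replicate offsets are. The gene near Tnfrsf13b was Grap, where replicate 3 stood apart, at 87.2% in naive and 85.5% in CpG cells beside 45.2% to 58.8% in the other samples. Some other genes near Tnfrsf13b also had replicate 3 apart in both groups without passing the limit. Gid4 had 79.5% in naive and 75.8% in CpG replicate 3, beside 43.4% to 57.0% in the other samples. For Akap10 these were 66.2% and 70.3%, beside 44.0% to 54.7%. Not all did so, as Aldh3a2 lay between 40.5% and 43.5% in all 6 samples. Tnfrsf13b itself did not show an offset of replicate 3, which lay beside its replicate 2 in both groups. In a gene such as Tnfrsf13c, the level on a single allele therefore carries a replicate-linked component that the sum over alleles does not show. Its cause was not tested.

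The pathway downstream of these receptors was described from lists of named genes. Among the 7 genes of the non-canonical NF-kB pathway, 4 of 6 tested fell on the 129 allele and none rose (median log2 fold change -1.58), and 5 of 7 fell and 1 rose on the Cast allele (median -1.49). Over all tested genes the medians were -0.01 and -0.04. Of these genes 28.2% were higher and 27% lower on the 129, and 30.7% higher and 31.5% lower on the Cast allele. Every list count below without the replicate block stands beside these shares. With the replicate block 5 of 6 fell and 1 rose on the 129 allele. The block raised the shares of all tested genes too, to 33.1% higher and 31.9% lower on the 129 and 32.9% and 33.3% on the Cast allele. Birc3 and Birc2, the ligases recruited by TRAF2, changed by log2 fold changes of -1.85 and -1.55 on the 129 and -2.14 and -1.62 on the Cast allele. Birc3 went from 589 ± 91.0 to 154 ± 34.4 CPM and Birc2 from 396 ± 33.6 to 134 ± 11.5 CPM over both alleles (SD, n = 3). Map3k14, the gene of NIK, changed by -1.71 and -1.75, and Nfkb2, the precursor that NIK signalling has processed, by -1.45 and -1.46. Chuk, the kinase subunit that NIK activates, rose on the Cast allele (0.50, edgeR adjusted p = 0.0145) and missed the threshold on the 129 allele (0.43, edgeR adjusted p = 0.0513), which it passed with the replicate block (edgeR adjusted p = 0.00768).

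Relb, the partner of the processed Nfkb2 product, showed the same kind of replicate offset as Tnfrsf13c. Its 129 reads were 250, 11 and 12 in the naive and 90, 9 and 9 in the CpG samples, while its Cast reads were 160, 350 and 357 and 64, 150 and 182. Over both alleles it was at 97.9, 83.2 and 101 CPM and then 31.6, 31.7 and 37.3 CPM, a difference of -1.49 in log2 (SE 0.13, adjusted p from edgeR = 7.07e-06). On the 129 allele alone it did not pass (-1.62, edgeR adjusted p = 0.428), and with the replicate block it did (-1.38, edgeR adjusted p = 8.12e-04). Chuk, Relb and Sdc4 lie outside the rule for naming pathway genes and were singled out after their values were seen.

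Among the other TRAF genes, 1 of 5 rose and 1 fell on each allele (median 0.38 on the 129 and 0.54 on the Cast allele), no more than the shares of all genes give. With the replicate block 2 rose on the Cast allele, beside 32.9% of all genes. Traf1, an adaptor that pairs with TRAF2, rose by log2 fold changes of 0.91 and 1.02, from 102 ± 30.7 to 205 ± 26.8 CPM over both alleles (SD, n = 3), and its 129 call was lost without any single sample except naive replicate 2. Traf5, a close relative of TRAF3, fell by 1.23 and 1.49 on the log2 scale, from 60.5 ± 4.60 to 24.0 ± 1.34 CPM. Adaptors of this family thus moved in both directions.

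Among the kinase complex and canonical NF-kB genes, 3 of 6 tested fell on the 129 allele and none rose (median -0.59), beside 27% of all genes lower. With the replicate block 4 fell there, beside 31.9% of all genes. On the Cast allele 3 of 5 fell and 1 rose (median -0.45), beside 31.5% lower and 30.7% higher. The gene tested on the 129 allele only was Ikbkg, on the X chromosome, which fell there (log2 fold change -0.99). Its copy on the inactive Cast X had too few reads (means of 3.17 and 2.33 CPM in the naive and CpG samples). Of the proteases and gamma-secretase subunits that shed TACI and BCMA or related receptors, 2 of 7 fell on the 129 allele (median -0.46), near the 27% of all genes, and 4 of 6 on the Cast allele (median -0.52), beside 31.5%, and none rose. With the replicate block 4 of 7 fell and 1 rose on the 129 allele, beside 31.9% of all genes lower and 33.1% higher. Psen2, a catalytic gamma-secretase subunit, fell by 1.00 and 1.78 on the log2 scale. Of the genes of proteins that bind TACI or APRIL, 2 of 4 could be tested and 1 passed on each allele, which rose. It was Sdc4, a heparan sulfate proteoglycan of the kind that binds APRIL, at 254 ± 45.6 and 387 ± 35.1 CPM over both alleles (SD, n = 3).

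Other TNF receptors that use TRAF adaptors fell or did not pass. On the 129 allele 2 of 4 tested fell (median -1.13), beside 27% of all genes, and on the Cast allele 3 of 5 (median -1.31), beside 31.5%. Tnfrsf18, the receptor GITR, fell by 2.12 and 1.99 on the log2 scale, from 28.3 ± 5.06 to 6.93 ± 0.470 CPM over both alleles (SD, n = 3). Tnfrsf1a, a TNF receptor found on many cell types, went from 353 to 2 reads over the group, a ratio of 218 by depth (exact 95% counting interval 59.8 to 1804), beside the fall of all tested macrophage markers, whose part in it was not tested. Genes of survival downstream of these receptors were mixed, with 2 rising and 2 falling of 8 tested on each allele (medians 0.45 and 0.15), near the shares of all genes. With the replicate block 4 rose on the 129 allele, beside 33.1% of all genes. Pim2, a survival kinase, rose by log2 fold changes of 4.81 and 5.27, from 9.10 ± 1.19 to 276 ± 22.4 CPM. This gene lies on the X chromosome, so its Cast reads are of the inactive copy and the 2 changes are not of like alleles. The Cast means were 2.07 CPM (5.33 reads per sample) in the naive and 81.2 CPM in the CpG samples. On the 129 allele the means were 14.1 and 396 CPM. Akt1, a kinase of growth signalling, rose by 1.38 and 1.11.

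**Figure D5:**
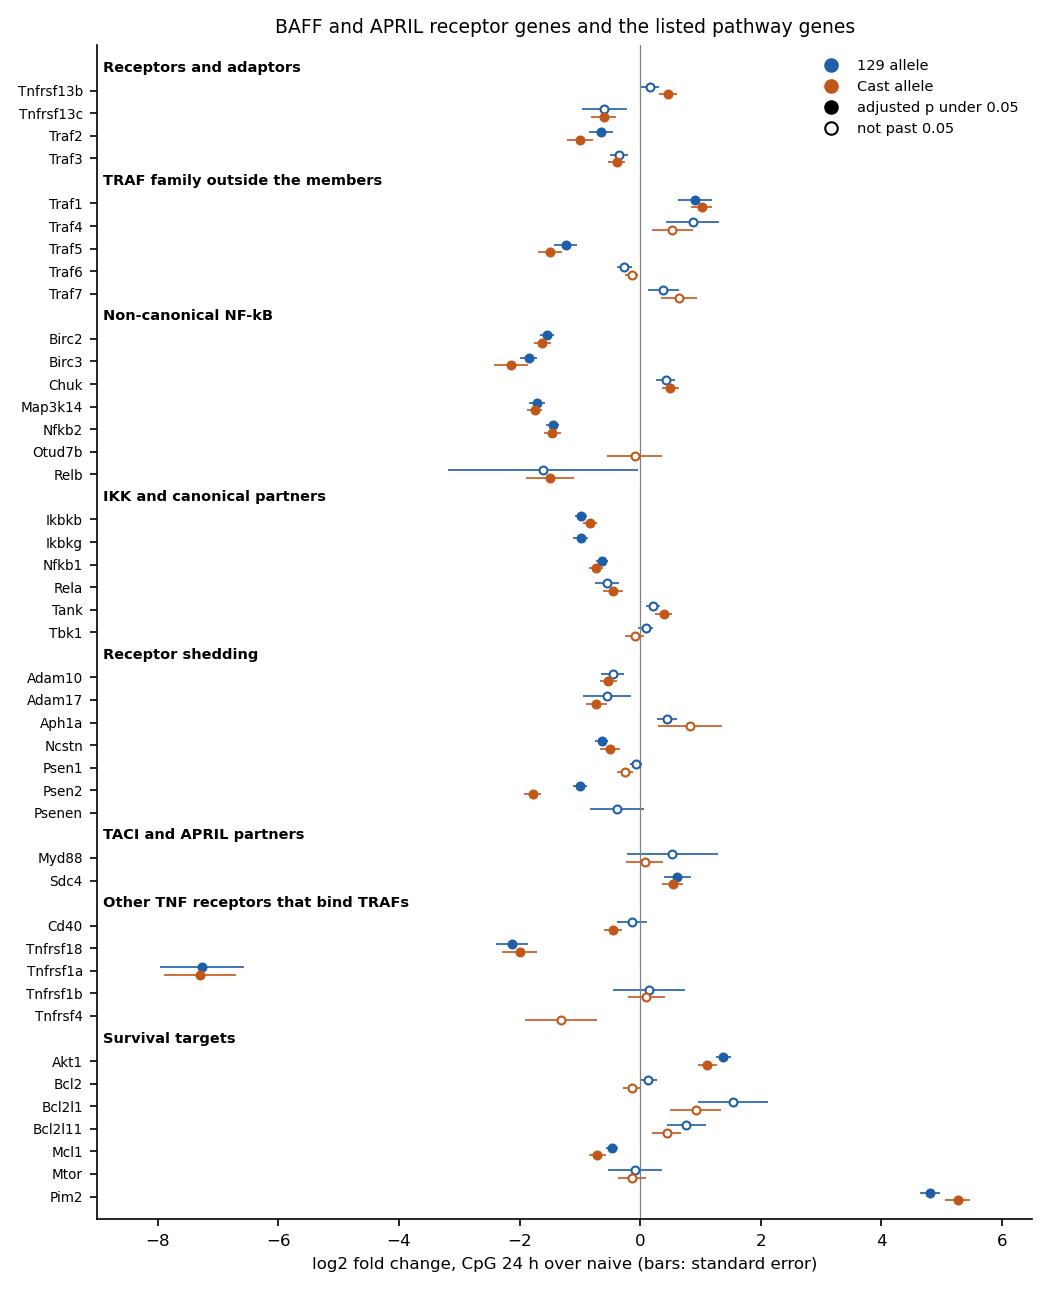
Log2 fold change of CpG over naive (horizontal axis) on the 129 and Cast alleles for the tested receptor and adaptor genes and pathway genes of the lists; bars are standard errors and filled points have an edgeR adjusted p under 0.05. The receptor and adaptor genes lie between -1.001 and 0.46, whereas Birc2, Birc3, Map3k14 and Nfkb2 lie between -1.45 and -2.14. Tnfrsf1a rests on 2 reads in the CpG samples, so its point has no firm size. The Cast point of Pim2 is of the inactive X chromosome.

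The genes whose pattern over the 12 values (6 samples on 2 alleles) was most like each of the 4 genes were found by root mean square distance in log2 CPM, each allele centred on its own mean. For Tnfrsf13b they were Phtf2 (0.0926), Ino80c (0.103) and Apopt1 (0.114), where the median distance of the 4245 compared genes was 0.502. For Tnfrsf13c, 9030624J02Rik was at a distance of 0.0875 and the next, Stim1 and Axin1, at 0.179 and 0.197, beside a median of 0.670. For Traf2 the closest were 2810474O19Rik (0.160), Arid4b (0.162) and Rfk (0.169), and for Traf3 they were Zkscan8 (0.103), Aim2 (0.107) and Galnt1 (0.112). The closest gene to Tnfrsf13c was therefore about as close as the closest to Tnfrsf13b, even though its pattern includes the replicate offset. Distances describe these 6 samples.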

How the data were processed

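Total RNA of splenic CD23+ B cells was sequenced from libraries of a stranded kit, per the labels' protocols. The authors deposited 2 tables of raw read counts per gene and sample, 1 for each strain annotation, and the submitters' processing notes name STAR, featureCounts, Subread 2.0.0 and the mm10 build, while the tables end in rows of totals of the htseq-count kind. How a read was given to a strain is not given in the sources used here. Those rows stayed out of library sizes (reads in no gene: 48.1% to 67.1% for 129 and 44.5% to 62.1% for Cast), and genes without a name held 5.10% to 7.59% and 14.4% to 19.7% of gene reads. Chi-square per degree of freedom between replicates lay between 5.96 and 15.7, so none was counted as a repeat of another.

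Counts were tested with edgeR 4.0.16 in R 4.3.3 (robust quasi-likelihood test, filterByExpr, TMM scaling, group as the only term, Benjamini-Hochberg adjustment over all tested genes, threshold 0.05), on each strain's counts and on their sum. The Cast-to-129 ratio was tested as an allele-by-group interaction with a term for each sample, over genes with at least 10 reads in at least 3 samples. The fits were checked on simulated counts. Wilson intervals and exact permutation tests used scipy 1.17.1. Exon lengths came from GENCODE for GRCm38. Same-numbered samples deviated together, so the numbers were taken to pair the samples. The correlations were 0.56, 0.44 and 0.61 for 129, 0.23, 0.16 and 0.24 for Cast, and 0.48, 0.39 and 0.47 for the ratio. They were lowest for the summed alleles, at 0.19, 0.16 and 0.21. The pairing comes from the data, since the labels give only the numbers.

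Alternatives were RLE factors, library totals, DESeq2 1.42.0, limma 3.58.1, other count filters, a minimum log2 fold change of 1, named genes only, each sample left out and the replicate block. The omission of replicate 1 of both groups, and the omission of samples from the within-sample ratios, were added after the data had been seen. All 5 receptor and adaptor genes were named, with any ligand and up to 12 pathway genes that passed on both alleles, by largest mean absolute log2 fold change (Chuk, Relb and Sdc4 were named outside this rule), and for likeness the 3 closest genes with a mean of at least 100 reads per table. The members, the lists and the rules were chosen with earlier results of these data known. A gene that this rule selects is not reported here. Camlg, Bcl2a1b and Bcl2a1d were not matched between the tables.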

Additional observations from a re-analysis of the deposited data

Results flagged for a closer look

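The change of Tnfrsf13b with CpG differed between its alleles in 1 form of the test of that difference itself, the form with the replicate block. With a term for the allele ratio of each replicate number, the log2 change was 0.30 larger on the Cast allele than on the 129 allele (SE 0.08, edgeR adjusted p = 0.00678), and all 3 same-numbered pairs of samples moved that way. Without that term the size was the same and the test did not pass (edgeR adjusted p = 0.129). Of 11 other settings only the block passed. The value from limma was 0.30 (limma adjusted p = 0.514), and with 1 sample left out the edgeR adjusted p lay between 0.224 and 0.352. The pairing that the block uses was taken from these same data.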

How the results depend on the processing

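For the receptor and adaptor genes, the direction of the change was the same under every alternative on the 129 allele, on the Cast allele and over the summed alleles. The calls were less stable. A minimum log2 fold change of 1 left 2525, 2827 and 3095 called genes on the 129, Cast and summed alleles (23.9%, 27.3% and 29.9% of tested genes), and 0 of the 4 tested receptor and adaptor genes in each. Leaving out each sample in turn gave 0 to 1 of these 4 on the 129, 1 to 4 on the Cast and 2 to 3 on the summed alleles. Of the whole tables these fits called 5216 to 5477, 5987 to 6319 and 6603 to 7067 genes (47.6% to 50%, 55.7% to 59.0% and 62.2% to 66.5% of those tested). Without replicate 1 of both groups 0, 1 and 2 of the 4 passed, and 4560, 5303 and 5955 genes of the whole tables (42.4%, 50.2% and 56.7%). For the ratio of the alleles, limma called 54 genes, the omission of 1 sample 14 to 26 and the omission of replicate 1 of both groups 15, beside 95.

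The replicate block, which pairs same-numbered samples, raised the number of the 5 genes called on the 129 allele from 1 to 3 (Tnfrsf13c, Traf2 and Traf3), the number of all genes with a changed ratio from 95 to 779, and the number of the 5 genes among those from 0 to 1 (Tnfrsf13b), and it changed no other call of the receptor and adaptor genes.

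The ratio of Tnfrsf13c changed sign to 0.0223 with a library size per table, 0.14 without naive replicate 2, 0.20 without naive replicate 3, 0.53 without CpG replicate 1 and 0.13 without replicate 1 of both groups. That of Traf3 changed sign to 7.96e-04, to 0.0424 without naive replicate 1 and to 0.0399 without replicate 1 of both groups, the first with a library size per table. With 1 sample left out the lowest values were -0.43 and -0.13. None of these passed and the cause was not tested. The difference in Cast share ranged from 4.44 to 5.76 points for Tnfrsf13b when 1 sample was left out, and from -7.44 to 8.35 for Tnfrsf13c. The ratio of Tnfrsf13b to Tnfrsf13c stayed between 1.73 and 2.04 times higher, and that of Traf3 to Traf2 between 1.28 and 1.49 times. Depth limits Tnfrsf17 and the ligands, with at most 13 reads in a group.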
